A study of Homo sapiens with 2 samples.

Results

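The genes described here are the death ligand TRAIL (TNFSF10) and 9 receptors of the tumour necrosis factor (TNF) receptor superfamily, 10 of the 18417 genes that the array table measured with a transcript cluster of a single gene symbol. They were chosen by name, as TNFSF10, TNFRSF10A, TNFRSF10B, TNFRSF10D, FAS, TNFRSF1A, TNFRSF21, TNFRSF11B, TNFRSF9 and TNFRSF12A, and each had exactly 1 transcript cluster. Expression was measured in ACHN, an established human renal carcinoma line described in the labels as clear cell. One group was transfected with an shRNA against Kindlin-2, the integrin adaptor encoded by FERMT2, and the other with a control shRNA. Both were grown in medium with serum and the selection drug G418. The labels do not say whether either culture was a clone or a pool. Each group held 1 Affymetrix Human Gene 1.0 ST array (n = 1). No replicate error, p-value or standard error can therefore be given, and every difference below is a difference between these 2 arrays.

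TRAIL and FAS ligand trigger apoptosis by clustering receptors that carry a cytoplasmic death domain, which recruit the adaptor FADD and the initiator caspase-8. Decoy receptors bind the same ligand without passing on a full death signal. Receptors of the superfamily without a death domain instead recruit TRAF adaptors and activate NF-kB and MAP kinases. TRAIL kills many tumour cells while sparing most normal cells, and tumour cells differ widely in how they respond to it.

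Values are log2 RMA values, the authors' background-corrected and normalised summary of the probes of each gene, so a difference of 1 is a 2-fold change. A gene was kept for counting when the higher of its 2 values reached a floor of 6.52, the table's overall median, and 11822 genes were kept. Of the 10 genes, 9 were kept, all with both values above that floor, and TNFRSF11B was not. The targeted gene FERMT2 had a value of 8.26 in the Kindlin-2 shRNA array against 9.37 in the control, or 46.4% of the control level. The kidney lineage factor PAX8 (11.29 and 11.43) and the simple epithelial keratin KRT8 (12.11 and 12.65) were bright on both arrays. Of 9 kept kidney markers, 2 were at least 1.5-fold lower in the Kindlin-2 shRNA array, PAX2 (9.09 and 9.75) and CDH16 (6.26 and 7.10). CDH6 (7.32 and 6.41) was the 1 marker at least 1.5-fold higher. The lower value of CDH16 and that of CDH6 were under the floor. The leukocyte marker PTPRC (3.54 and 3.53) and the endothelial marker VWF (5.04 and 5.28) were under the floor on both. The 2 kept endothelial markers, CLDN5 (7.36 and 7.21) and ENG (6.94 and 6.91), were above it on both. So were the 2 kept leukocyte markers, CD68 (10.25 and 9.01) and NKG7 (7.02 and 7.31). The clear cell marker CA9 was not analysed here. Of 7 kept fibroblast and smooth muscle markers, 3 were at least 1.5-fold lower in the Kindlin-2 shRNA array and none was higher by that much. These were the pericyte gene RGS5 (9.65 and 10.81), the PDGF receptor PDGFRB (6.31 and 7.08) and the smooth muscle actin ACTA2 (9.64 and 10.40). The lower value of PDGFRB was under the floor. Beside these counts and those of the kidney markers, 5.23% of all genes kept were at least 1.5-fold lower and 5.1% at least 1.5-fold higher. The fibroblast markers DCN and LUM were under the floor on both arrays. THY1 (11.06 and 10.88) and COL1A1 (7.45 and 7.28) of the same list, named after their values were seen, were above it on both. The part of these markers in the results below was not tested.

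The family was split at its extremes. TRAIL itself was 4.72-fold lower in the Kindlin-2 shRNA array, whereas the costimulatory receptor TNFRSF9 was 5.06-fold higher. FAS was 1.66-fold higher and the TNF receptor TNFRSF1A 1.52-fold lower. The 3 membrane receptors of TRAIL, TNFRSF10A, TNFRSF10B and TNFRSF10D, were each higher by less than 1.5-fold. Of the 9 genes kept, 1 was at least 2-fold lower and 1 at least 2-fold higher, where 1.26% and 1.41% of all 11822 genes kept passed these thresholds. At 1.5-fold the counts were 2 lower and 2 higher, where 5.23% of all genes kept were lower and 5.1% higher. The median difference of the 9 genes was 0.33, with 6 above 0 and 3 below, and that of all genes kept was -0.02. TRAIL and TNFRSF9 were known to be among the most changed genes of these arrays when the family was put together, so these counts are a description of the 10 genes.

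**Figure D1:**
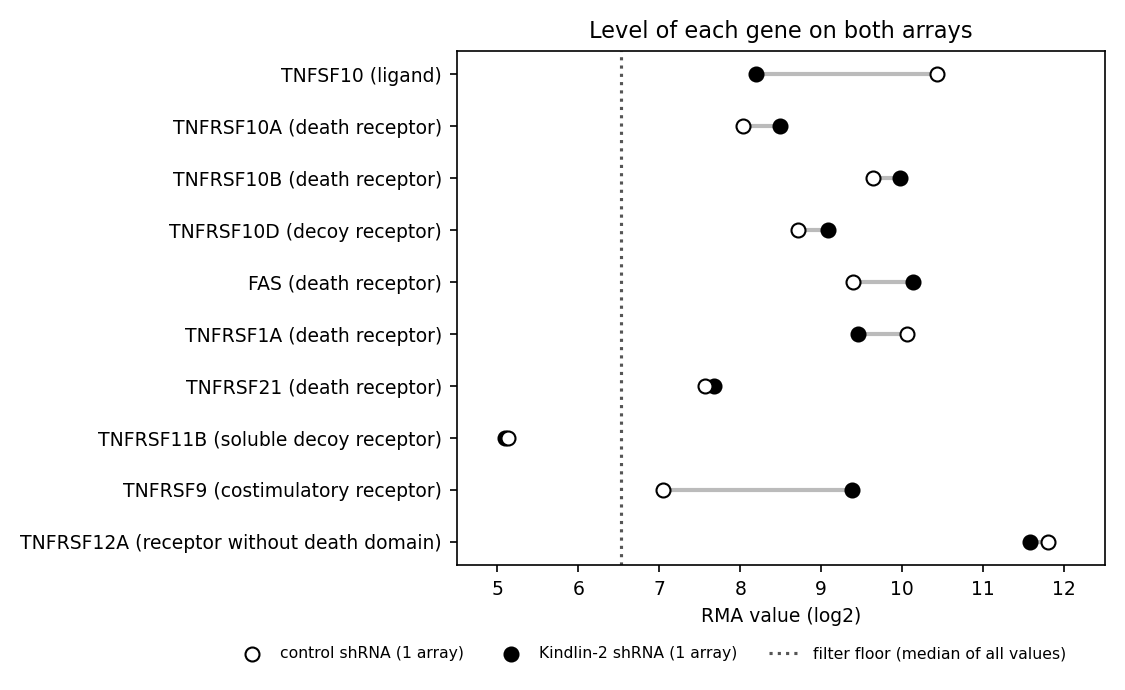
RMA value (log2, horizontal axis) of each of the 10 genes, with its role, on the control shRNA array (open circles) and the Kindlin-2 shRNA array (filled circles), 1 array each and no error bars. The widest gaps are those of TNFSF10 (10.43 to 8.20) and TNFRSF9 (7.04 to 9.38), which run in opposite directions, and TNFRSF11B lies under the dotted floor of 6.52 on both arrays.

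TNFSF10 encodes TRAIL, a membrane-bound or shed trimeric ligand. Its value was 8.20 in the Kindlin-2 shRNA array and 10.43 in the control array, a difference of -2.24. The Kindlin-2 shRNA level was thus 21.2% of the control level, and both values lay above the floor. Of all genes kept, 12 had a larger decrease. The SD of the difference over genes of like brightness was 0.39, a spread that holds both array noise and real differences and is not a replicate error. Less TRAIL RNA in every cell and fewer cells expressing it cannot be told apart in such bulk RNA, and the same holds for every gene here.

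TNFRSF9, also known as CD137, is best known as a costimulatory receptor of activated T cells and has no death domain. Its value was 9.38 in the Kindlin-2 shRNA array and 7.04 in the control array, a difference of 2.34. Of all genes kept, 7 had a larger increase, and the SD over genes of like brightness was 0.44. Its control value was the closer of the 2 to the floor of 6.52, and both values lay above it.

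Since TNFRSF9 is a gene of activated lymphocytes and TRAIL is also made by immune cells, the leukocyte markers were read beside them. Of 11 leukocyte markers measured, 2 reached the floor, the lysosomal and macrophage marker CD68 (10.25 and 9.01) and the cytotoxic granule gene NKG7 (7.02 and 7.31). The summed level of the list on the linear scale was 1696 in the Kindlin-2 shRNA array and 1029 in the control array, and 478 and 514 without CD68. The sums without CD68 rest on NKG7 and on markers under the floor, so no change or lack of change can be read from them. The T cell gene CD3E was under the floor on both arrays, at 5.56 and 5.38. The defining marker of leukocytes, PTPRC, was also under the floor on both arrays, at 3.54 and 3.53. Its difference of 0.02 is one between dim values, from which no change or lack of change can be read. The part of the CD68 difference in these results was not tested.

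**Figure D2:**
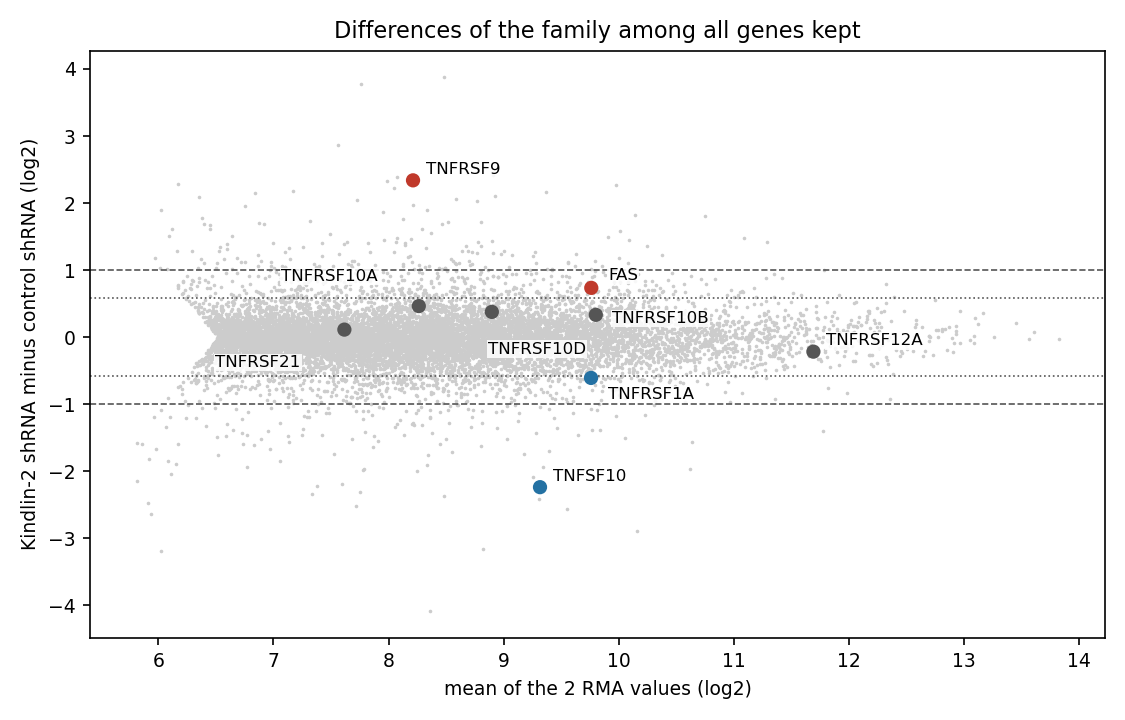
Difference between the arrays (Kindlin-2 shRNA minus control shRNA, log2, vertical axis) against the mean of both values (log2, horizontal axis) for the 11822 genes kept (grey points), with the 9 kept genes of the family labelled. Red and blue mark genes at least 1.5-fold higher or lower (dotted lines), and dashed lines mark 2-fold. TNFRSF9 at 2.34 and TNFSF10 at -2.24 lie at the edge of all genes, and the TRAIL receptors lie in the upper part of the main cloud.

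The promoters of these 2 genes are shown because theirs were the only 2-fold differences in the family. Each sequence is the 250 bases upstream of the RefSeq transcript start on GRCh38.p14, read 5′ to 3′ on the gene's strand, and capitals mark the matches to the motifs named after them. The TNFSF10 sequence is chr3:172523431-172523680, minus strand, and the TNFRSF9 sequence is chr1:7940840-7941089, minus strand.
TNFSF10: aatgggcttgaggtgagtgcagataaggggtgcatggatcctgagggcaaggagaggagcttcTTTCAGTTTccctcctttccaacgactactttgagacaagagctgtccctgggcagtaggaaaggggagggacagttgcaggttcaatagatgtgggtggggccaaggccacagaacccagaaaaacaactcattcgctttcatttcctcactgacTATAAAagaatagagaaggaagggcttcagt
TNFRSF9: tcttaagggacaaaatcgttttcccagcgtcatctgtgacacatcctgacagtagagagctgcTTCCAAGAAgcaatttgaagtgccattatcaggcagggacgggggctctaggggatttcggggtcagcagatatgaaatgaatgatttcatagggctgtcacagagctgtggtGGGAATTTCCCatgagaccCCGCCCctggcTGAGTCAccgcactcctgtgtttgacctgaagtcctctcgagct
Both strands were searched for 6 motifs. The TNFSF10 promoter held 1 core of the interferon-stimulated response element, TTTCNNTTT, with the letters TTTCAGTTT starting 187 bases before the transcript start. The same core occurs in 9.2% of 35116 RefSeq promoters of that length. It also held a TATA box, TATAAA, 31 bases before the start (10.7% of promoters). The TNFRSF9 promoter held a kappa B site, the motif bound by NF-kB, with 1 match on each strand that overlap and start 74 and 73 bases before the transcript start (5.21% of promoters hold one). It also held an AP-1 site, TGANTCA, at 44 bases (6.57%), a GC box, GGGCGG on the other strand, at 55 bases (42.6%) and a GAS motif, TTCNNNGAA, at 187 bases (6.57%). These motifs were not found in the TNFSF10 window, and the core and TATA box of TNFSF10 were not found in that of TNFRSF9. A match describes the letters only, and no binding was measured. The G and C content was 49.6% for TNFSF10 and 51.6% for TNFRSF9, against a median of 58% over all promoters. RefSeq promoters were at hand for 5 of the 10 genes. FAS, with several transcript starts, held an AP-1 site in 1 window, a kappa B site in another and a GC box in every window. TNFRSF21 held a GC box, and the window of TNFRSF1A held none of the 6 motifs.

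The 3 membrane receptors of TRAIL measured here differed the other way from their ligand. TNFRSF10A, a death receptor, had a value of 8.49 in the Kindlin-2 shRNA array and 8.03 in the control array, 1.38-fold higher. TNFRSF10B, the other death receptor of TRAIL, had values of 9.97 and 9.63, 1.26-fold higher. TNFRSF10D, a decoy whose death domain is truncated, had values of 9.09 and 8.71, 1.30-fold higher. The death receptors and the decoy thus differed by similar amounts, between 0.33 and 0.46 on the log2 scale. Each of these differences was near or below the SD over genes of like brightness, which was 0.44, 0.39 and 0.42 in the same order. Among all genes kept, 7.71% had a larger increase than TNFRSF10A, 12.7% than TNFRSF10B and 10.9% than TNFRSF10D.

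The 3 genes lie next to each other on chromosome 8, and they are paralogs, so they are not separate observations. How far their probes share sequence was not tested. Among the kept genes close to them, chosen by position after the values were seen, RHOBTB2 differed by 0.03, CHMP7 by 0.14, R3HCC1 by -0.23, ENTPD4 by 0.35 and LOXL2 by 1.03. Of those neighbours, only LOXL2 differed by more than TNFRSF10A and TNFRSF10D, and ENTPD4 by slightly more than TNFRSF10B. The 50 nearest kept genes had a median difference of 0.07. With that median subtracted the receptors differed by 0.39, 0.26 and 0.30. The membrane decoy TNFRSF10C, which belongs to the same cluster, was not analysed here.

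Osteoprotegerin (TNFRSF11B), a secreted decoy for RANK ligand that also binds TRAIL, was dim on both arrays. Its values were 5.09 in the Kindlin-2 shRNA array and 5.13 in the control array, both under the floor. The difference of -0.04 changed sign among the alternative corrections, from -0.09 to 0.02, and no direction can be given. The RANK ligand gene TNFSF11, at 4.71 and 5.02, was also under the floor.

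FAS and TNFRSF1A, the best known death receptors outside the TRAIL group, differed in opposite directions. FAS, the receptor of FAS ligand and a known target of p53, had a value of 10.13 in the Kindlin-2 shRNA array and 9.39 in the control array. The difference of 0.74 exceeded the SD of 0.39 over genes of like brightness, and 3.05% of all genes kept had a larger increase. The ligand gene FASLG was under the floor on both arrays, at 5.16 and 5.07.

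TNFRSF1A, the main receptor of soluble TNF on most cells, had a value of 9.46 in the Kindlin-2 shRNA array and 10.06 in the control array, a difference of -0.61. Of all genes kept, 4.69% had a larger decrease. The kept genes of chromosome 12, where TNFRSF1A lies, had a median difference of -0.21. With that median subtracted the difference was -0.40, and with the median of its 50 nearest kept genes subtracted it was -0.39, which no longer reaches 1.5-fold. The related receptor LTBR, which binds lymphotoxin and was chosen after its value was seen, had values of 10.19 and 10.61. It is a neighbour of TNFRSF1A, with the same median of -0.21 over its 50 nearest kept genes, and differed by -0.21 with that median subtracted. The ligand genes TNF (5.45 and 5.47) and LTA (6.42 and 6.20) were under the floor on both arrays.

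The other 2 receptors differed little. TNFRSF21, a death domain receptor studied mainly in neurons and lymphocytes, had values of 7.67 and 7.56, a difference of 0.11. TNFRSF12A, the receptor of the cytokine TWEAK, had values of 11.58 and 11.80, a difference of -0.22. It was bright on both arrays, so its small difference is not one between dim values. The TWEAK gene TNFSF12 was not analysed here.

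**Figure D3:**
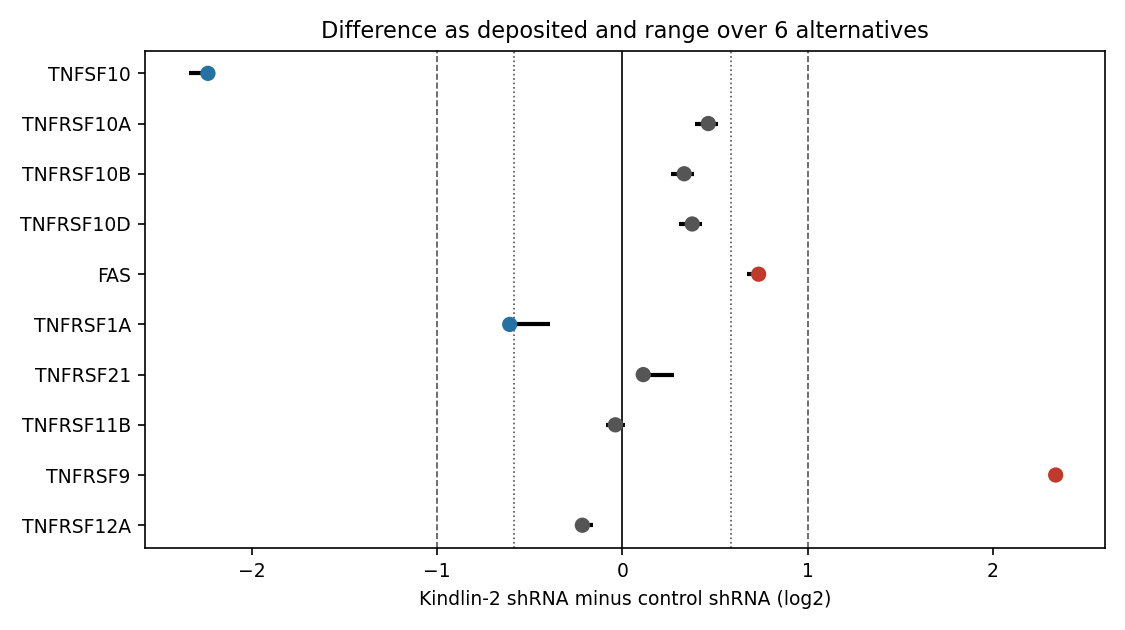
Difference of each gene between the arrays (Kindlin-2 shRNA minus control shRNA, log2, horizontal axis) as deposited (points) and its range over 6 alternative corrections (black bars, which are not error bars). Dotted and dashed lines mark 1.5-fold and 2-fold. The bar of TNFRSF1A runs from -0.63 to -0.39 across the 1.5-fold line, and those of TNFSF10, TNFRSF9 and FAS stay on 1 side of their lines.

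The rest of the superfamily and its signalling genes were read from 4 lists, written with earlier results of these data known. Of 17 other ligands, 14 were measured and 4 were kept. TNFSF9, the ligand of TNFRSF9, had values of 9.14 and 8.56 and was the 1 ligand at least 1.5-fold higher, at 150.1% of the control level, just past the threshold. Ligand and receptor of this pair were thus both higher in the Kindlin-2 shRNA array, the ligand by 0.59 and the receptor by 2.34. Of all genes kept, 5.07% had a larger increase than TNFSF9, and the SD over genes of like brightness was 0.42. CD70, the ligand of the costimulatory receptor CD27, was chosen after its value was seen and had values of 9.64 and 9.19. The other 2 kept ligands, TNFSF14 and LTB, differed by -0.04 and -0.08. TNFSF9, CD70 and TNFSF14 lie on chromosome 19 with the same median of -0.11 over their 50 nearest kept genes, so they are not separate observations. No ligand in the list was 1.5-fold lower, and their median difference was 0.20 over these 4 genes but -0.02 over all 14 measured.

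Of 20 other receptors, 18 were measured and 14 kept, with a median difference of 0.02 (-0.0032 over all 18). CD40, which recruits TRAFs in antigen-presenting and epithelial cells, had a value of 8.02 in the Kindlin-2 shRNA array and 7.20 in the control. It was 1.78-fold higher, the 1 receptor of the list past 1.5-fold. The kept genes of chromosome 20, where CD40 lies, had a median difference of 0.26, and its 50 nearest kept genes had a median of 0.34. With these medians subtracted the difference was 0.57 and 0.48, which no longer reaches 1.5-fold. The other 13 kept receptors of the list differed by less than 1.5-fold in either direction.

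Among the genes of the death-inducing complex and its caspases, 17 of 21 were measured and 14 kept, 8 above 0 and 6 below, with a median of 0.12. XIAP, an inhibitor of caspases, was the 1 gene past 1.5-fold, with values of 8.45 and 7.73 (1.65-fold higher). The core components were chosen after their values were seen. The adaptor FADD differed by 0.02 and the initiator CASP8 by 0.29. CFLAR, which competes with caspase-8 at the receptor, differed by 0.52, and BID, which links the receptor to mitochondria, by 0.22. CFLAR and CASP8 both lie on chromosome 2, with the same median of 0.19 over their 50 nearest kept genes. With that median subtracted CFLAR differed by 0.33 and CASP8 by 0.11. The next genes were also chosen after their values were seen. Lower were, among others, DAXX (-0.49), a protein that binds FAS, the caspase genes CASP6 (-0.46) and CASP9 (-0.38), and TRADD (-0.12), the adaptor of TNFRSF1A. Higher were, among others, MLKL (0.44) and FAF1 (0.34).

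Of 21 TRAF adaptors and receptor-proximal kinases, 19 were measured and 18 kept, and none was 1.5-fold higher or lower. Their median difference was 0.09, with 10 above 0 and 8 below. The range ran from -0.41, for IKBKG, to 0.53, for CYLD, named as the ends of the range. TRAF1, an adaptor of TNFRSF9 and an NF-kB target, was not kept and was chosen after its value was seen. It was under the floor on both arrays, at 6.34 and 5.83, a difference of 0.50 between dim values. In the 4 lists together 3 of 50 kept genes were 1.5-fold higher and none was 1.5-fold lower, beside 5.1% and 5.23% of all genes kept. None of the 50 was 2-fold higher or lower.

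**Figure D4:**
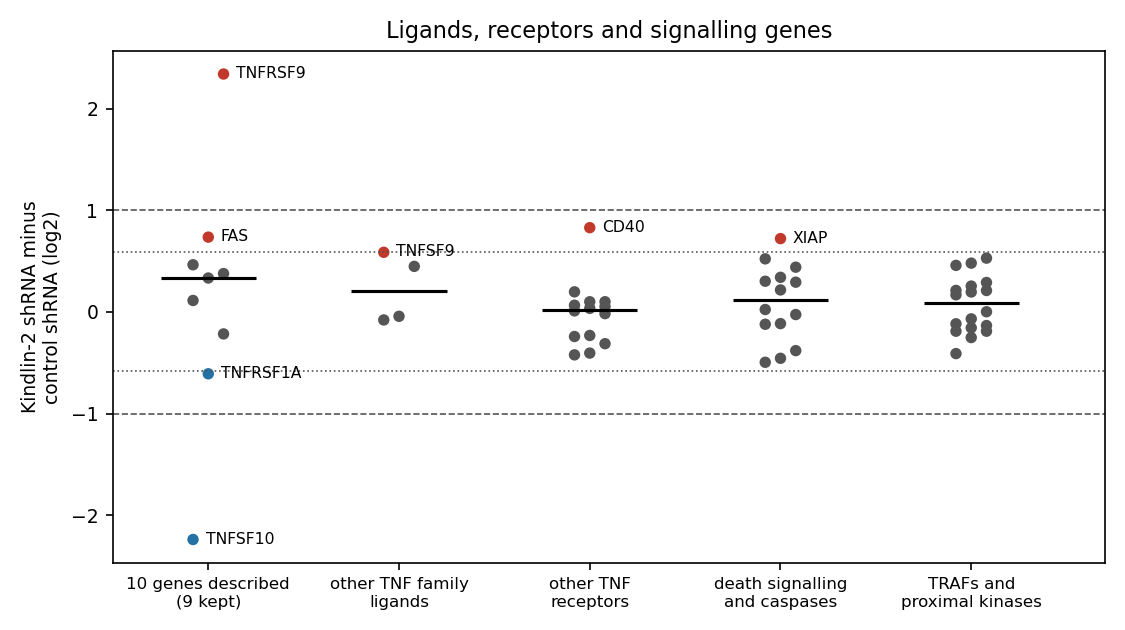
Difference between the arrays (Kindlin-2 shRNA minus control shRNA, log2, vertical axis) for the 9 kept genes of the family and the kept genes of 4 lists of related genes. Each point is a gene, black bars are medians, dotted and dashed lines mark 1.5-fold and 2-fold, and red and blue mark genes past 1.5-fold. TNFSF9, CD40 and XIAP are the 3 genes of the lists past the dotted line (CD40 not with its chromosome's median subtracted), and the 2-fold lines are passed by TNFSF10 and TNFRSF9 alone among the genes drawn.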

How the data were processed

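RNA of 2 ACHN cultures was hybridised to 1 array each. Per the submitters' processing notes, the authors used RMA and Affymetrix Expression Console 1.4.1, which gave the deposited log2 values. The log2 scale was judged from the values, which ran from 2.13 to 14.04. The sources used here do not give the annotation build or the arrays normalised together, and scanner files were not used here. Depth does not apply to arrays, and their number limits the precision.

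Symbols were those of GEO's platform annotation. Those of 19429 of 19460 transcript clusters with a single symbol were updated through Entrez IDs to RefSeq (GRCh38.p14), which also gave chromosomes and neighbours. Left out were 1754 clusters with several symbols and 12083 with none, and the brightest cluster stood for a gene. Groups came from the shRNA label. Differences are Kindlin-2 shRNA minus control, with no test. Brightness was divided into 10 bins for the SD. Counting at 2-fold was tested on simulated data with 3-fold changes and a narrower spread than that of these arrays, and counting at 1.5-fold was not tested. Python 3.11.15, pandas 2.3.3 and statsmodels 0.14.6 were used.

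The 10 genes and the lists were chosen with earlier results of these data known. Named from each list were up to 3 kept genes per direction past 1.5-fold. The ligands of the receptors and a few cell type markers were named for their role, and other names are marked. The markers of the kidney, leukocyte, endothelial and fibroblast lists described the sample: 9 of 9 measured kidney markers, 2 of 11 leukocyte, 2 of 10 endothelial and 7 of 11 fibroblast markers reached the floor, with median differences of -0.44, 0.47, 0.09 and -0.02. Over all measured markers the leukocyte and endothelial medians turned sign, to -0.04 and -0.14, and the first values rest on 2 genes each.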

Additional observations from a re-analysis of the deposited data

How the results depend on the processing

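Each of the 10 differences was recomputed under 6 alternatives: median centring, loess, repeated quantile normalisation, averaging of a gene's clusters, and subtraction of the autosome's or the neighbours' median. All 60 values lay within 1 SD, over genes of like brightness, of the deposited difference, and no gene past 1.5-fold changed sign. That SD, 0.34 to 0.47 over the bins, is wide beside such corrections, so staying within it says little about stability. Median centring moves every gene by the same 0.01, and TNFRSF1A stayed within 1 SD although it then missed 1.5-fold under 2 corrections. Averaging changed nothing, since each gene has 1 cluster. TNFSF10 ranged from -2.34 to -2.23, TNFRSF9 from 2.31 to 2.37 and FAS from 0.67 to 0.75. The counts past 2-fold stayed at 1 lower and 1 higher under these 6 and under both other filters on dim genes, as well as at 3-fold, and were 2 and 2 at 1.5-fold. The count of 2 genes at least 1.5-fold lower became 1 when either the autosome's or the neighbours' median was subtracted, since TNFRSF1A then missed the threshold. In the lists of ligands, other receptors and death signalling genes the 1 gene past 1.5-fold became 0 at 2-fold. Subtraction of the autosome's or the neighbours' median was tried on these lists after the data were seen. The count of other receptors then became 0, since CD40 missed 1.5-fold, and the other lists kept their counts (XIAP, on the X chromosome, was left as deposited). No paired analysis was possible because each group held 1 array. The absence of replicates limits every value, and no detection calls were at hand for dim genes such as TNFRSF11B.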
